A study of Rattus norvegicus with 6 samples.

Results

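The genes described here are the secreted and cell surface products of the airway epithelium of the rat lung. They are the secretoglobins Scgb1a1, Scgb3a1 and Scgb3a2, the BPI fold proteins Bpifa1 and Bpifb1, the mucins Muc1, Muc5ac and Muc5b, the transcription factor Spdef and the polymeric immunoglobulin receptor Pigr. They were chosen by name, and 9 of the 10 names were found among the 21210 gene names with an annotated transcript. The 9 genes had 22 of the 70376 transcripts in the table, of which 10 were annotated and 12 were assembled from the reads. 5 of the 22 lay on the opposite strand to the gene whose name they carried. A gene or transcript was tested when it was above 0 in at least 3 of the 6 libraries, which 8 of the 9 genes and 19 of the 22 transcripts were.

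The libraries were made from lung specimens of SD rats that were 7 weeks old at the start. 3 PF model rats received a single intratracheal dose of bleomycin at 7 mg/kg, a drug that damages the lung epithelium and is followed by scarring, and 3 control rats received saline. Lungs were taken on day 28, and RNA depleted of rRNA gave one library per rat. In such lung specimens, fewer cells of a type and less RNA per cell cannot be told apart.

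Club cells are secretory cells of the small airways that release secretoglobins. Goblet cells and submucosal glands are among the sources of the gel-forming mucins. BPI fold proteins are secreted in the nose and the large airways and take part in defence against microbes, and Spdef drives goblet cell differentiation. Pigr carries polymeric IgA across epithelial cells into the lumen, and Muc1 is a mucin anchored in the cell membrane.

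The 250 bases upstream of the start site are shown for the secretoglobins and the BPI fold genes, since members of both families differed in how their levels were spread over the 6 libraries. The sequences are those of RefSeq on the build GRCr8, 5′ to 3′ on the strand of the gene, and 8 of the 10 names had one. Capitals mark TATAAA (the TATA box, given strand only), and on both strands TGTTTA (a forkhead core), CTCAAG (a core bound by NKX2-1) and TTGCNNAA (a C/EBP core), which did not overlap each other in these windows.
Scgb1a1, GRCr8 chr1:215409687-215409936, minus strand: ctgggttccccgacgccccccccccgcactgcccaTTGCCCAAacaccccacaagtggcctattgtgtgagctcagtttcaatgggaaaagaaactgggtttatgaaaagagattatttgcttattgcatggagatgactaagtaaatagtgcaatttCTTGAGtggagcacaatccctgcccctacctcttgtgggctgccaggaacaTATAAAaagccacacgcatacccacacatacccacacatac
Scgb3a1, GRCr8 chr10:34468916-34469165, plus strand: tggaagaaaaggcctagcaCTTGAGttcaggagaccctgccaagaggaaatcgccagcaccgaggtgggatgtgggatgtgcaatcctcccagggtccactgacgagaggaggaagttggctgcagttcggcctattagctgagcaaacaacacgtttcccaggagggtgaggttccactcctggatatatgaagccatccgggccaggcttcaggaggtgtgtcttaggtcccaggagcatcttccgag
Scgb3a2, GRCr8 chr18:36183495-36183744, plus strand: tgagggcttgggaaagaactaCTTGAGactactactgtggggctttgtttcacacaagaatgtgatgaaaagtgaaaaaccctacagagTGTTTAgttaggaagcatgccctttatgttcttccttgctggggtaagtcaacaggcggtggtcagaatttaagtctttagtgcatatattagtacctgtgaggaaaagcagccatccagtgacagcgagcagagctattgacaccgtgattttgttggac
Bpifa1, GRCr8 chr3:163087715-163087964, plus strand: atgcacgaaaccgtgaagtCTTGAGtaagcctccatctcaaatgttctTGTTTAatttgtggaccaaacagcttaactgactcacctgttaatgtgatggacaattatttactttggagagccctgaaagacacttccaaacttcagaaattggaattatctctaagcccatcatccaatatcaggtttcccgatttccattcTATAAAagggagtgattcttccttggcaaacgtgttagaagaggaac
Bpifb1, GRCr8 chr3:163132901-163133150, plus strand: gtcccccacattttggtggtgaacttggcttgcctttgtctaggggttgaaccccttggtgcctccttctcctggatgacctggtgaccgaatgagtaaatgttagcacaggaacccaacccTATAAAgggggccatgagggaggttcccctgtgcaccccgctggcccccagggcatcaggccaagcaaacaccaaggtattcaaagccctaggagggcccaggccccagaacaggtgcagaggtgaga

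CTCAAG lay in 5 of the 8 promoters, in comparison with 13.3% of 27457 rat promoters of the same length. Counted from the start site, it began at base -231 in Scgb3a1 and Bpifa1, at -229 in Scgb3a2 and at -92 in Scgb1a1, each time read on the opposite strand, and at -138 in Spdef. The Bpifb1 window held none, and its TATAAA began at base -128. TATAAA was found in 4 of the 8, against 8.38% of all promoters, TGTTTA in 3 against 12.2%, and TTGCNNAA in 1, Scgb1a1, against 9.20%. These matches of letters are descriptions and no evidence of binding.

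Model replicate 3 stood apart from the other 5 libraries for several of these genes. For 4 of the 9 genes (Scgb3a1, Bpifa1, Bpifb1 and Muc5b) its FPKM, the fragments of a transcript scaled for its length and for the mapped fragments of the library, was at least 2 times that of every other library. Of the 13896 genes with a mean FPKM of at least 1, 0.281% met that condition for model replicate 3. It was the highest library for 6 of the 9 genes and for 25.4% of those 13896 genes. Bpifa1 had a mean FPKM of at least 1 only through model replicate 3, being at 0.135 FPKM or less in the other libraries. The members were chosen with earlier results known, and these counts are a description. The fold changes of the 8 tested genes are therefore also given without this library. Reads assigned to transcripts, estimated from coverage, ranged from 35778600 to 41112700 per library, and the value of model replicate 3, 38926600, lay within that range. The alveolar type 2 markers were all found, with Sftpc, the surfactant protein C gene, between 2410 and 4146 FPKM.

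**Figure D1:**
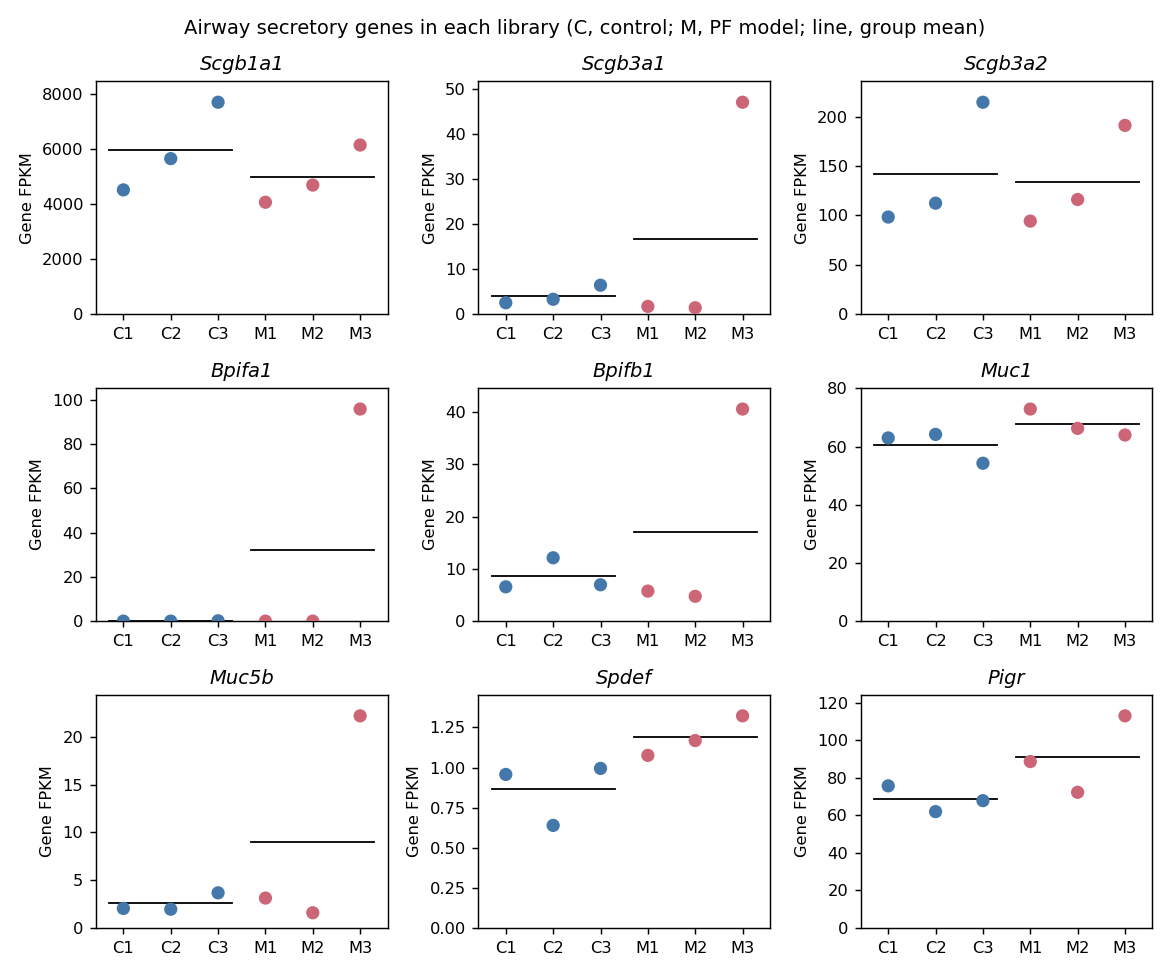
FPKM of the 9 genes found, summed per gene, in the control (C1 to C3) and PF model (M1 to M3) libraries, with a line at each group mean and linear axes that start at 0. Model replicate 3 (M3) is far above the other libraries for Scgb3a1, Bpifa1, Bpifb1 and Muc5b, at 47.0, 95.8, 40.6 and 22.2 FPKM, while the values of both groups overlap for the other genes except Spdef.

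None of the 8 tested genes was called different between model and control. A gene was called when limma on log2(FPKM + 1) gave an unadjusted p no higher than 0.05 and the mean FPKM of the groups differed at least 2 times, which held for 1.53% of the 19203 genes tested, 0.687% being higher and 0.838% lower in the model. That balance depended on the scaling, with 132 genes called higher and 161 lower on FPKM, and 194 higher and 138 lower on TPM. At an unadjusted p of at most 0.05 alone the count was 0 of the 8, in comparison with 4.9% of all genes, and at a limma adjusted p below 0.05 it was 0 of the 8 and 0.0104% of all genes. In the PF model, the log2 fold changes of the 8 genes, fitted on log2(FPKM + 1), ranged from -0.25 for Scgb1a1 to 0.85 for Muc5b. Groups that did not overlap were seen in 1 of the 8 genes, Spdef, and in 10.7% of all genes, 4.86% with the model higher and 5.83% with it lower.

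Scgb1a1, the club cell secretory protein, was the most abundant of these genes, and it ranked 11 to 13 among all genes in the 6 libraries. The gene is on the minus strand of chromosome 1, from 225279676 to 225283326 in the coordinates of the files. Its FPKM was 4514, 5648 and 7693 in the control libraries and 4065, 4689 and 6140 in the model libraries. The lowest library was a model one and the highest a control one, and the groups overlapped. The control mean was 5952 ± 1611 and the model mean 4965 ± 1065 (SD, n = 3 each), a log2 fold change of -0.25 (SE 0.53, limma adjusted p = 0.972). Without model replicate 3 the log2 fold change was -0.41 (SE 0.60, limma adjusted p = 0.988), and without control replicate 3 it was -0.046. Between 111224 and 212220 estimated reads lay behind each value.

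Scgb3a2, also a club cell product, had the second highest mean level of the 9 genes. It lies on the plus strand of chromosome 18, from 38292701 to 38295831. Its FPKM was 98.4, 112 and 214 in control and 94.3, 116 and 191 in model libraries. Each group had a pair of libraries near 100 and 1 library, replicate 3, well above them, so the ranges almost coincided. The log2 fold change was -0.06 (SE 0.37, limma adjusted p = 0.996), and it was -0.35 (SE 0.35) without model replicate 3. The annotated transcript held between 86.0% and 90.8% of the FPKM of the gene, and a spliced variant assembled from the reads, MSTRG.16661.2, held the rest.

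Scgb3a1, a secretoglobin of the larger airways, was low in 5 libraries and high in 1. It lies on the plus strand of chromosome 10, from 35133252 to 35135466. Its FPKM was 2.56, 3.33 and 6.45 in control and 1.75, 1.46 and 47.0 in model libraries. Model replicates 1 and 2 were below all control libraries, and model replicate 3 was 29.3 times their mean. Its rank among all genes was 636 in model replicate 3 and between 7387 and 12933 elsewhere. The group means were 4.11 ± 2.06 and 16.7 ± 26.2 (SD, n = 3 each), and the log2 fold change was 0.50 (SE 1.14, limma adjusted p = 0.975). Without model replicate 3 the log2 fold change was -0.90 (SE 0.33), with an unadjusted limma p of 0.038, a log2 ratio of means of -1.36 and an adjusted p of 0.986. That was the single call among the 8 genes without this library, where 1.61% of 18902 genes were called.

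The summed FPKM of the 3 secretoglobins was 4615, 5764 and 7914 in control and 4161, 4807 and 6379 in model libraries. Scgb1a1 made up between 96.3% and 98.0% of it in every library, so the sum carried little of the other secretoglobins. The log2 difference of model minus control was -0.24 (exact permutation test, two-sided, p = 0.5), in a design whose smallest possible p is 0.1, and it was -0.035 without control replicate 3.

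**Figure D2:**
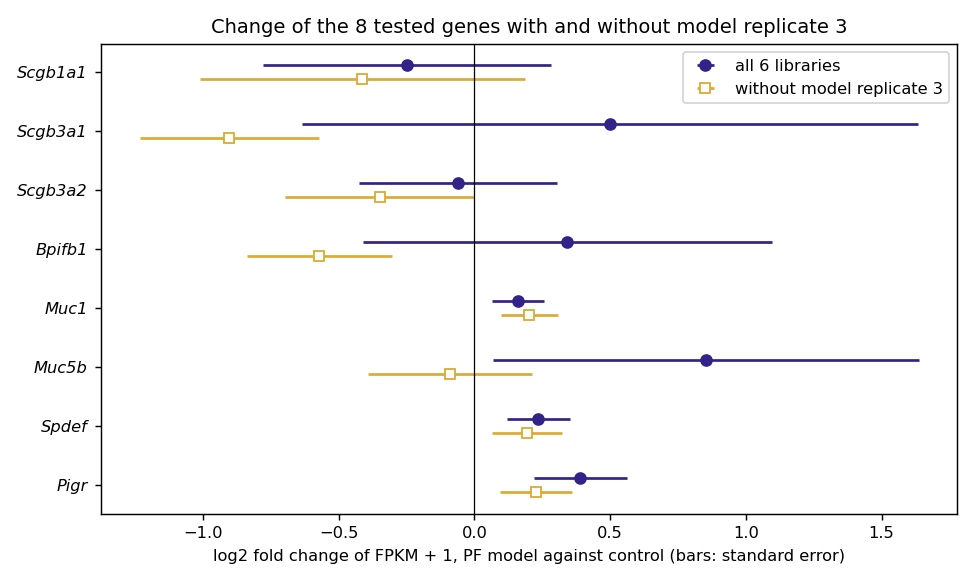
Log2 fold change of FPKM + 1 in PF model against control for the 8 tested genes, with standard errors from limma, from all 6 libraries (filled circles) and without model replicate 3 (open squares). The values of Scgb3a1, Bpifb1 and Muc5b go from 0.50, 0.34 and 0.85 to -0.90, -0.57 and -0.09, and those of Muc1, Spdef and Pigr are above 0 in both fits.

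Bpifa1, a secreted protein of the nasal and tracheal epithelium also called SPLUNC1, was found almost in a single library. Its 9 exons lie on the plus strand of chromosome 3, from 149624712 to 149630613. It was listed at 0 in control replicates 1 and 2 and in model replicates 1 and 2, at 0.135 FPKM in control replicate 3 and at 95.8 FPKM in model replicate 3. The estimated reads were 8 in control replicate 3 and 5341 in model replicate 3, where the gene ranked 244 among all genes. Being above 0 in 2 libraries, it was not tested; with no filter on low values, the log2 fold change was 2.14 (limma adjusted p = 0.923). The value of this gene in the model group therefore comes from 1 rat.

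Bpifb1, a neighbour of Bpifa1 on chromosome 3 from 149668102 to 149702399 (plus strand), is a secreted protein of goblet cells and airway glands. Its FPKM was 6.56, 12.1 and 6.96 in control and 5.74, 4.75 and 40.6 in model libraries. Model replicates 1 and 2 were the lowest of the 6 libraries, and model replicate 3 was 7.74 times their mean. The log2 fold change was 0.34 (SE 0.75, limma adjusted p = 0.972), and -0.57 (SE 0.27, adjusted p = 0.986) without model replicate 3. The annotated transcript had 4.26, 7.84 and 5.21 FPKM in control and 4.44, 2.05 and 20.6 in model libraries. The assembled variant MSTRG.24287.2 had the same number of exons but began downstream of the annotated start, at 149678421. It had 2.3, 4.28 and 1.75 FPKM in control and 1.30, 2.7 and 19.9 in model libraries. Both transcripts were thus highest in model replicate 3, with shares of 50.8% and 49.2% there.

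Muc1, the membrane mucin, had similar levels in all libraries. It lies on the plus strand of chromosome 2, from 188543137 to 188547874. Its FPKM was 63.0, 64.2 and 54.3 in control and 72.9, 66.3 and 64.0 in model libraries. A single model library, replicate 3, lay within the control range and the other model libraries lay above it. The log2 fold change was 0.16 (SE 0.095, limma adjusted p = 0.934), and 0.20 (SE 0.10) without model replicate 3. Transcripts assembled on the opposite strand held between 6.31% and 13.2% of the summed FPKM.

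Muc5b, a gel-forming mucin of airway mucus, was low except in model replicate 3. It lies on the plus strand of chromosome 1, from 214778496 to 214810720. Its FPKM was 2.04, 1.96 and 3.68 in control and 3.13, 1.59 and 22.2 in model libraries. Model replicates 1 and 2 lay within or below the control range, and model replicate 3 was 9.43 times their mean. The log2 fold change was 0.85 (SE 0.78, limma adjusted p = 0.934), and -0.09 (SE 0.30) without model replicate 3. With the annotated transcript alone it was -0.32.

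The reads of Muc5b were divided over 4 transcripts, and most of the signal of model replicate 3 was in assembled ones. The variant of 49 exons, MSTRG.3333.1, had 0.190, 1.30 and 2.02 FPKM in control and 0.440, 0.637 and 9.86 in model libraries. The variant of 50 exons, MSTRG.3333.2, had 0.722, 0.273 and 0.561 in control and 1.90, 0.112 and 7.27 in model libraries. The annotated transcript of 51 exons had 0.626 FPKM in model replicate 3 and between 0.066 and 1.09 in the other libraries.

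A short transcript of 2 exons on the opposite strand, MSTRG.3334.1, had 0.279, 0.230 and 0 FPKM in control and 0.450, 0.773 and 4.46 in model libraries. All model libraries were above all control libraries (log2 fold change 1.05, SE 0.52, limma adjusted p = 0.945). Its estimated reads were few, at 6.81, 5.15 and 0 in control and 11.5, 17.9 and 108 in model libraries. It held up to 48.7% of the summed FPKM of Muc5b, in model replicate 2. By estimated reads, its part there was 17.9 of the 462 of the gene. The labels name a stranded library kit, but whether strand was used in counting is not stated, so reads of both strands may not be told apart there.

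Muc5ac, the other gel-forming mucin of the airway, had no transcript under that name. RefSeq gives AABR07006032.1 as another name of it, and under that name the table had a model of 25 exons that was above 0 in 2 libraries and reached 0.0337 FPKM, in model replicate 3. It was not added to the members, and a ratio of Muc5ac to Muc5b could not be formed.

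Spdef, the goblet cell transcription factor, was the least abundant of the tested genes and the 1 whose groups were separate. It lies on the minus strand of chromosome 20, from 7292824 to 7307284. Its FPKM was 0.957, 0.639 and 0.995 in control and 1.08, 1.17 and 1.32 in model libraries. Every model library was above every control library, by a small margin. The means were 0.864 ± 0.195 and 1.19 ± 0.125 (SD, n = 3 each), a log2 fold change of 0.24 (SE 0.12, limma adjusted p = 0.934), and 0.19 (SE 0.13) without model replicate 3. Between 48.8 and 109 estimated reads lay behind each value.

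Pigr, the IgA receptor, had the smallest unadjusted p of the 8 genes. Its 2 annotated transcripts lie on the plus strand of chromosome 13, from 47572219 to 47591699. The assembled variants that held most of its signal, MSTRG.9808.2 and MSTRG.9808.3, began upstream of that span, at 47564168 and 47564171. The FPKM of Pigr was 75.7, 62.0 and 67.8 in control and 88.7, 72.3 and 113 in model libraries. Model replicate 2 lay within the control range, and the other model libraries were above it. The means were 68.5 ± 6.90 and 91.3 ± 20.5 (SD, n = 3 each), and the log2 fold change was 0.39 (SE 0.17, limma adjusted p = 0.934). Without model replicate 3 it was 0.23 (SE 0.13, limma adjusted p = 0.986).

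Model replicate 3 differed from the others in the transcript to which the reads of Pigr were assigned. MSTRG.9808.2, an assembled variant of 10 exons and 4805 bases, had 72.9, 59.4 and 64.9 FPKM in control and 85.5, 69.8 and 16.8 in model libraries. MSTRG.9808.3, also of 10 exons and 4885 bases long, was listed at 0 in 5 libraries and at 93.2 FPKM in model replicate 3. The share of MSTRG.9808.2 was between 95.7% and 96.6% in 5 libraries and 14.9% in model replicate 3, where MSTRG.9808.3 held 82.5%. Such entries, at 10 FPKM or more in 1 library and 0 in the other 5, numbered 22 of 3339 in model replicate 3 and between 16 and 32 in the other libraries. The 2 annotated transcripts of Pigr had at most 0.150 FPKM, and with them alone the log2 fold change was -0.05.

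**Figure D3:**
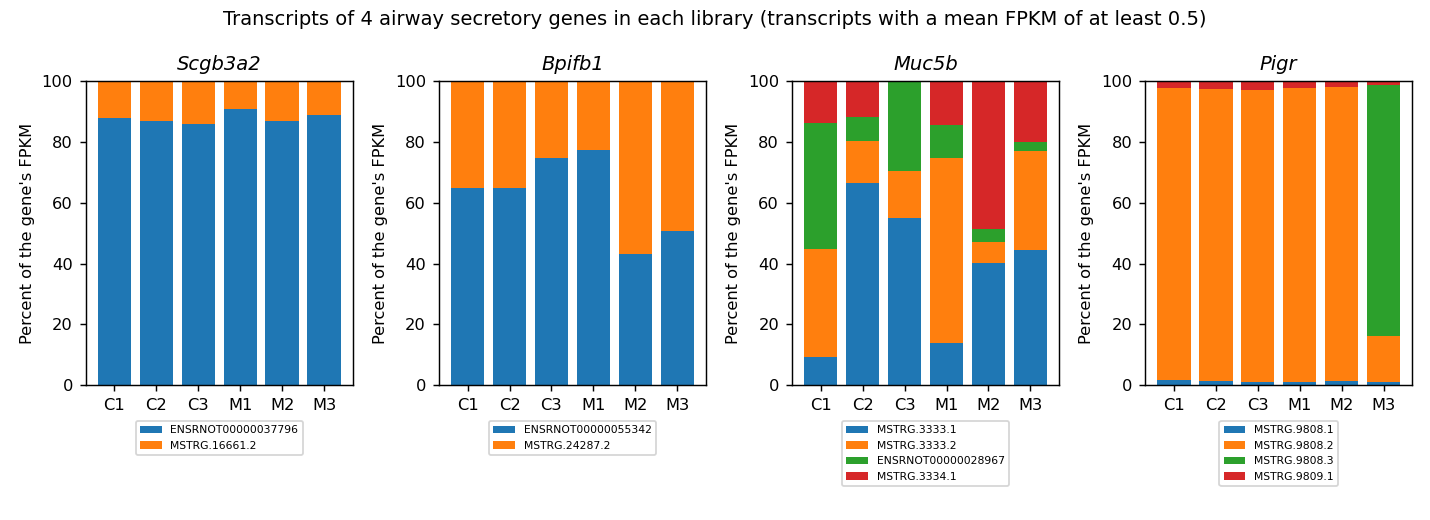
Percent of the summed FPKM of Scgb3a2, Bpifb1, Muc5b and Pigr held by each transcript with a mean FPKM of at least 0.5, in control (C1 to C3) and PF model (M1 to M3) libraries. In Pigr, MSTRG.9808.3 takes 82.5% in M3 and 0 in the other 5 libraries, and in Muc5b the shares differ between libraries of the same group.

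Among the 19 tested transcripts of these genes, 0 were called, in comparison with 2.98% of the 64867 transcripts tested. At an unadjusted limma p of at most 0.05 the count was also 0, against 4.53% of all, and at an adjusted p below 0.05 it was 0 against 0.0277%. Of all transcripts, 1.22% were called higher and 1.76% lower in the model. The groups did not overlap for 4 of the 19, against 10.4% of all transcripts, of which 4.12% were higher and 6.29% lower. Higher in the model were Spdef and the opposite strand transcript of Muc5b. Lower in the model were an annotated Pigr transcript, with means of 0.122 and 0.081 FPKM, and MSTRG.3687.1, a transcript of 2 exons inside an intron of Scgb1a1 on the opposite strand. MSTRG.3687.1 had 22.1, 15.6 and 15.7 FPKM in control and 15.2, 11.6 and 11.6 in model libraries (log2 fold change -0.44, SE 0.18, limma adjusted p = 0.945). No circular RNA of the 5216 in the series had one of the 10 genes as its host gene.

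FPKM is per length, but a gene value here is a sum over transcripts of unlike length, which limits comparison between genes. The order of the levels differed between libraries. In control libraries it was Scgb1a1, Scgb3a2, Pigr, Muc1, Bpifb1, Scgb3a1, Muc5b, Spdef and Bpifa1 by mean FPKM. The control ranges of Pigr (62.0 to 75.7) and Muc1 (54.3 to 64.2) overlapped, as did those of Scgb3a1 (2.56 to 6.45) and Muc5b (1.96 to 3.68). In model replicate 3, Bpifa1 was the fourth of the 9 genes, between Pigr and Muc1. In model replicates 1 and 2, Muc5b was above Scgb3a1 (3.13 against 1.75 and 1.59 against 1.46 FPKM), while Scgb3a1 was above Muc5b in every control library. In model replicate 2 this order rested on the opposite strand transcript MSTRG.3334.1, at 0.773 FPKM or 48.7% of the Muc5b sum. That transcript is 526 bases long and had 17.9 estimated reads there. Without that transcript, Muc5b was below Scgb3a1 there.

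The genes whose profile over the 6 libraries was nearest to a member were taken among 2811 genes with a mean FPKM of at least 1 and a standard deviation of at least 0.3 on the log2(FPKM + 1) scale. The distance is the root mean square difference of centred log2(FPKM + 1) over the 6 libraries. The nearest to Scgb1a1 were Wdr63, a gene of motile cilia, at 0.041, AABR07005593.1 at 0.052 and Spaca9 at 0.060. Wdr63 had 3.39, 4.72 and 6.53 FPKM in control and 2.78, 3.41 and 4.83 in model libraries.

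The nearest to Muc5b were Spire2 at 0.215, Cyp2a3 at 0.251 and LOC108348048 at 0.293. All were highest in model replicate 3, which follows from choosing them by the profile of Muc5b. LOC108348048 was at 6.25 FPKM there and at 0 in every other library, so it passed the filter only through that library. Cyp2a3, a cytochrome P450 of the airway and nasal epithelium, had 6.28, 5.02 and 9.43 FPKM in control and 6.0, 2.78 and 37.9 in model libraries. Those nearest to Bpifa1 were far from it, with Rnps1 at 1.12, Scgb3a1 at 1.17 and Clca1 at 1.29. Those nearest to Pigr were AABR07044388.2 at 0.058, Sdk2 at 0.064 and Rtn2 at 0.080.

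The other genes of the airway secretory pathways were taken from lists of 85 names, of which 58 were found and 53 tested. Of these, 1 was called higher in the model and 0 lower, where 0.687% and 0.838% of all genes were, with a median log2 fold change of 0.03, where the median of all genes was -0.01. The gene called was Tnfrsf17, the receptor BCMA of plasma cells, which make IgA. It had 0.194, 0.124 and 0.145 FPKM in control and 0.298, 0.473 and 0.530 in model libraries (log2 fold change 0.31, SE 0.078, limma adjusted p = 0.934). All model libraries were above all control libraries, at levels under 1 FPKM, and the gene was not tested under a filter of a mean FPKM of at least 1. Jchain and Mzb1, tested in the same list, had log2 fold changes of -0.02 and 0.24 with overlapping groups. The lists were chosen with earlier results known, and the authors had reported Tnfrsf17 as differentially expressed in these rats. The count of calls in the lists is therefore a description.

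Of 19 tested genes of mucus assembly and goblet cells, 0 were called and 7 were highest in model replicate 3, where 4541 of the 19203 tested genes were highest. Clca1, a secreted goblet cell protein, had 0.611, 2.20 and 1.15 FPKM in control and 0.480, 0.938 and 17.8 in model libraries. Foxa2, a forkhead factor of airway epithelium, had 10.4, 10.4 and 8.42 in control and 12.1, 11.6 and 7.10 in model libraries. The high value of model replicate 3 was thus seen for Clca1 and not for Foxa2.

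Of 22 tested genes of airway defence and club cells, 0 were called and 11 were highest in model replicate 3. Slpi, a secreted protease inhibitor, had 3.33, 0 and 0.485 FPKM in control and 3.76, 0.30 and 11.1 in model libraries. Wfdc2, another secreted inhibitor of that family, had 70.1, 79.5 and 90.8 in control and 73.7, 82.7 and 122 in model libraries. Retnla, a secreted protein induced in injured lung, was highest in another library, with 64.0, 26.9 and 35.6 in control and 184, 39.9 and 56.2 in model libraries (log2 fold change 0.90, SE 0.59, limma adjusted p = 0.934).

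Among the related families, 0 of 2 tested secretoglobins, 0 of 4 BPI fold proteins and 0 of 3 mucins were called. Scgb1b24 had 7.55, 6.94 and 7.08 FPKM in control and 6.63, 6.77 and 4.03 in model libraries, all model values being the lower. Bpifa5, of the same family as Bpifa1, had 1.87, 1.96 and 3.14 in control and 1.19, 1.44 and 1.67 in model libraries (log2 fold change -0.43, SE 0.18, limma adjusted p = 0.934). Neither was highest in model replicate 3, unlike Bpifa1.

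Markers of other cell types were set beside these values. The 11 ciliated cell markers found of 12 summed to between 163 and 195 FPKM in control libraries and to 166, 171 and 221 in model libraries. Tppp3 alone, a tubulin polymerisation gene, made up between 63.7% and 81.6% of that sum. Of the 11 markers, 5 were highest in model replicate 3 and 6 in control replicate 3, and the 10 other than Tppp3 summed to 37.5, 41.2 and 70.9 in control and to 30.5, 40.9 and 54.6 in model libraries. The log2 ratio of the summed FPKM of the 9 genes to the sum of all 11 had a mean of 5.11 ± 0.30 among controls and of 4.83 ± 0.11 among model rats (SD, n = 3 each), a difference of -0.28 (exact permutation test, two-sided, p = 0.3). For the 8 genes other than Scgb1a1, a setting added once the values were known, the difference was 0.22 (exact permutation test, p = 0.6). Against the 10 markers without Tppp3, a setting also added then, the difference for the 9 genes was 0.011 (exact permutation test, p = 1). The value of -0.28 thus rested on both Scgb1a1 and Tppp3.

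The 5 basal cell markers found of 6 summed to between 0.764 and 1.24 FPKM in control and to 0.533, 0.871 and 3.39 in model libraries, and all 5 were highest in model replicate 3. The 6 smooth muscle markers summed to between 106 and 141 in control and to 117, 101 and 183 in model libraries, with 5 of the 6 highest in model replicate 3. The 6 fibroblast markers summed to between 293 and 311 in control and to 317, 345 and 411 in model libraries, and 3 of the 6, the collagen genes Col1a1, Col1a2 and Col3a1, were highest in model replicate 3. Unlike for the 4 genes high in that library, the sum of the 6 fibroblast markers was above every control library in all 3 model libraries. Col3a1 alone made up between 52.4% and 59.4% of that sum. The other 5 markers summed to 137, 133 and 140 in control and to 129, 141 and 178 in model libraries, so the groups overlapped. Pdgfra, Lum and Dcn had log2 fold changes of -0.061, -0.10 and -0.13. A list of 8 heart muscle genes, chosen after the values were seen, summed to between 0.872 and 1.37 in control and to 1.32, 1.12 and 21.1 in model libraries. The basal cell, smooth muscle and heart muscle lists had their highest sum in model replicate 3, as the 4 genes did. So did the fibroblast, alveolar type 2 and plasma cell lists, at 411, 6984 and 94.8 against at most 345, 6368 and 91.8 elsewhere. The part of any of these lists in the values of the 4 genes was not tested.

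**Figure D4:**
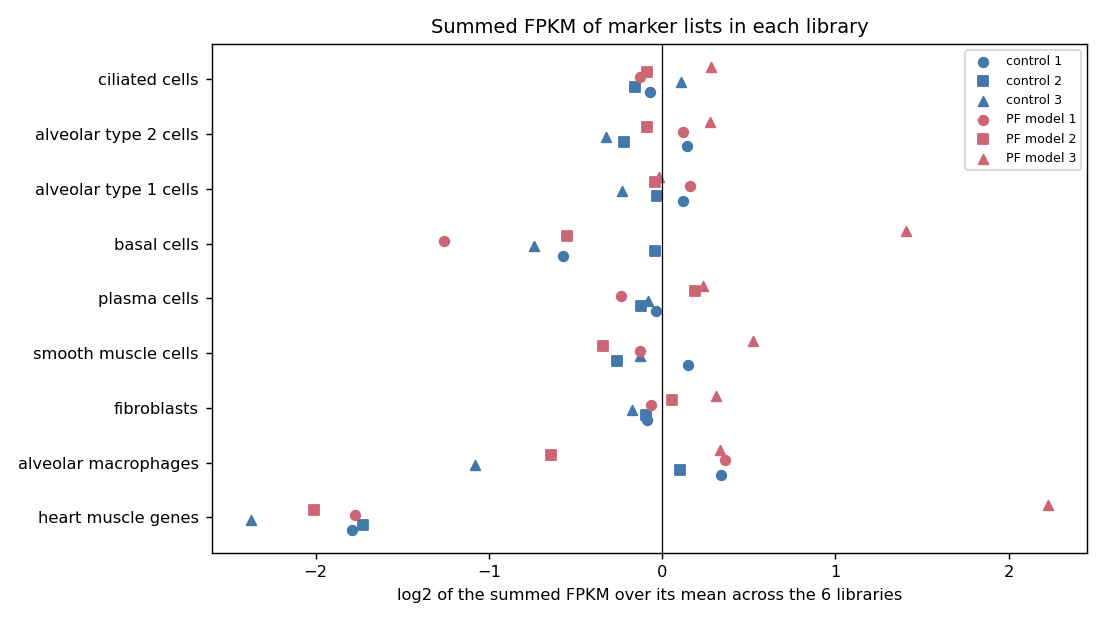
Summed FPKM of each marker list in each library, as the log2 ratio to the mean of the 6 libraries, with control in blue and PF model in red. The red triangle, model replicate 3, is to the right of the other libraries for basal cells, smooth muscle cells and heart muscle genes, at sums of 3.39, 183 and 21.1 FPKM. It is also the furthest to the right, by less, for fibroblasts, alveolar type 2 cells and plasma cells, at 411, 6984 and 94.8 FPKM. For ciliated cells its place, at 221 FPKM, follows Tppp3, and 6 of the 11 ciliated markers were highest in control replicate 3.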

How the data were processed

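Lung RNA of 3 control and 3 PF model rats was analysed, grouped by the sample type in the labels. The authors assembled transcripts with StringTie and deposited FPKM per transcript, together with per-base coverage, a signal not scaled for library size, and, for circular RNAs, counts of back-splice reads. The submitters' processing notes name HISAT2, StringTie and TopHat, and the methods name Bowtie2 and Tophat2. The genome build is not given in the sources used here, so gene coordinates are those of the files. The deposited normalized circular RNA signal and the miRNA libraries were not analysed here. The circular RNA counts were used only to look for host genes.

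FPKM were summed over all transcripts with a gene name. Features above 0 in at least 3 of 6 samples were tested on log2(FPKM + 1) by limma 3.58.1 in R 4.3.3, with a mean-variance trend and two-sided, with Benjamini-Hochberg adjustment over all features. Fold changes on this scale understate those of low genes. Calls were made at an unadjusted p no higher than 0.05 together with a log2 ratio of mean FPKM beyond 1 in either direction, the thresholds of the methods. Sums and ratios were compared with exact permutation tests over the 20 regroupings. Reads were estimated as coverage times transcript length over a read length of 150 bases; the number of reads counted per gene is unknown.

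The genes and lists were chosen with earlier results of these data known. Named were all members, their transcripts at 1 FPKM or more on average, and from each list the called genes, the 2 most abundant and the 2 with the largest change at a mean FPKM of at least 1, from which examples are given. For Scgb1a1, Bpifa1, Muc5b and Pigr the 3 genes of nearest profile were named. Transcripts of lower level were named after their values were seen. Alternatives were other pseudocounts, filters, scalings and sums, other tests, leaving out each library, and a replicate block. The fits were tested on simulated data. Python 3.11.15 with pandas 2.3.3, numpy 2.4.6 and matplotlib 3.10.9 was used for tables and plots.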

Additional observations from a re-analysis of the deposited data

How the results depend on the processing

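No setting gave a call among the 8 tested genes except leaving out model replicate 3, so that leaving out 1 library gave 0 to 1 calls (Scgb3a1). Over these 8 genes, 7 settings that can move a fold change kept its direction in 53 of 56 values. Of these values, 8 were identical to the main one, in genes without a transcript that the setting could leave out or reweight. Leaving out 1 library kept the direction in 42 of 48 values, and the other 5 settings leave the fold change as it is. Scgb3a2 was at 0.025 as TPM, and with annotated transcripts only Muc5b was at -0.32 and Pigr at -0.054. Leaving out 1 library gave -0.90 to 1.24 for Scgb3a1, -0.35 to 0.28 for Scgb3a2, -0.57 to 0.86 for Bpifb1 and -0.090 to 1.49 for Muc5b, and -0.43 to -0.046 for Scgb1a1, -0.42 to -0.035 for the secretoglobin sum and -0.44 to -0.15 for the ratio to ciliated markers; below 0 were Scgb3a1, Bpifb1 and Muc5b without model replicate 3, and above 0 was Scgb3a2 without control replicate 3, model replicate 1 or model replicate 2. The ratio to ciliated markers went from -0.28 to 0.22 without Scgb1a1 and to 0.011 without Tppp3, both settings added after the values were known. Called transcripts of the members numbered 0, and 1 with a pseudocount of 0.1 (MSTRG.3334.1). With 1 library left out they numbered 0 to 1, all of Muc5b, the 1 arising without control replicate 2 or model replicate 1, 2 or 3. Transcript shares with separate groups numbered 1 of 11, against 9.83% of 28365 such shares in all genes, and 1 to 4 with 1 library left out (4 without control replicate 1, 3 without model replicate 1 or 2, 2 without model replicate 3). The pathway lists had 1 call, 2 with a pseudocount of 0.1, as TPM or with sums weighted by length (Tff3 being added), 0 at a mean FPKM of at least 1 and 4 with annotated transcripts only; leaving out 1 library gave 1 to 3 (3 without model replicate 1, 2 without control replicate 1 or model replicate 2). All genes had 293 calls, 80 at a mean FPKM of at least 1, where fewer genes are tested, and 519 with annotated transcripts only. Otherwise the cause was not tested.

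With the replicate number as a block, 0 members, 2 pathway genes (Tnfrsf17 and Retnla) and 311 genes in all were called. The deviations of same-numbered libraries had correlations of 0.072, 0.033 and -0.066, and those of differently numbered ones lay between -0.13 and 0.093. Scgb1a1 and Scgb3a2 rose from replicate 1 to replicate 3 in both groups. Whether same-numbered samples shared more than a number was not tested. Transcript shares with annotated transcripts only and the ratio of Muc5ac to Muc5b gave no value. Spdef rests on 48.8 to 109 estimated reads per library, and Bpifa1 on 0 to 8 outside model replicate 3.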

Other observations

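Genes outside the lists that were high in model replicate 3 were chosen after their values were seen. Gp2, a membrane glycoprotein of epithelium overlying lymphoid tissue, had 1.04, 1.20 and 1.85 FPKM in control libraries and 0.282, 0.490 and 12.3 in model libraries. Cd177, a surface protein of neutrophils, had 2.60, 3.96 and 4.06 FPKM in control and 1.89, 2.67 and 17.2 in model libraries. Both were above every other library in model replicate 3, and model replicates 1 and 2 did not exceed the control range.

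Of the heart muscle genes, Myh6, the atrial myosin heavy chain, was listed at 0 in all control libraries and in model replicate 1, at 0.034 FPKM in model replicate 2 and at 5.11 FPKM in model replicate 3. Myl4, an atrial light chain, had 0.162, 0.168 and 0.089 FPKM in control and 0.145, 0.308 and 3.02 in model libraries. Mb, the myoglobin gene, was listed at 0 in 5 libraries and at 2.0 FPKM in model replicate 3. The airway genes Bpifa1 and Scgb3a1 and these heart muscle genes thus shared 1 library in which they were high.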
